A study of Rattus norvegicus with 2 samples.

Results

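The 9 genes described here encode the hypoxia-inducible factors and the enzymes that hold them in check: Hif1a, Epas1, Hif3a, Arnt, Egln1, Egln2, Egln3, Vhl and Hif1an. They were taken by gene symbol from the probe annotation of a rat Agilent microarray. All 9 were present, on 11 of the 40012 probes, and formed 9 of the 15613 genes that could be named. Hif1a and Vhl had 2 probes each, which were averaged, and the other 7 genes had 1 probe each.

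The study compared uncultured, untreated rat heart with a pool called mix1, made of cultured rat bone marrow cells (BMC) and cultured rat primary ear fibroblasts (PEF), both grown with 10% bovine serum. Heart RNA was labelled with Cy3 and mix1 RNA with Cy5, and they shared each of 2 arrays, 1 per heart sample. The labels give no strain, age, sex or oxygen level, do not say whether heart 1 and heart 2 came from separate animals, and give no mixing ratio for the pool. The p-values therefore measure only how far these 2 samples differ, possibly for technical reasons. They also leave out the spread of mix1, which counted as 1 control sample. Without a dye swap, a dye effect of a probe stays in its ratio. Each value is the log2 of the heart signal over the mix1 signal, so that 1 is a 2-fold higher and -1 a 2-fold lower signal in heart. This direction is likely but not stated in the sources used here. It rests on the series text and on cardiac muscle genes, of which all 10 listed were higher in heart (Mybpc3, a sarcomere protein gene, at 7.16 and 7.30). Tissue and culture differed together between the channels and cannot be told apart.

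Hypoxia-inducible factors are transcription factors made of an oxygen-sensitive alpha subunit and a stable beta subunit. When oxygen is present, prolyl hydroxylases mark the alpha subunit, the VHL protein recognises the mark, and the alpha subunit is ubiquitinated and destroyed. A further hydroxylase, encoded by Hif1an, modifies an asparagine of the alpha subunit and blocks the binding of coactivators. When oxygen is scarce these reactions slow, and the factor accumulates and activates genes of glycolysis, vessel growth and erythropoiesis. Because this control acts on the protein, the transcript ratios given here do not measure the activity of the factors.

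The members were divided between the channels. Epas1, Egln3 and Egln1 were higher in heart by 3.64-fold to 8.65-fold, Hif1a was 3.78-fold lower, and Arnt, Vhl, Hif1an and Egln2 were lower by 1.47-fold to 1.66-fold. In limma's moderated test across all genes, 3 of 9 members passed an adjusted p of 0.05 as higher and 5 as lower, while Hif3a did not pass. Over all 15613 genes, 31.4% passed as higher, 41.5% as lower and 72.9% in either direction, so that passing the test is common on these arrays. Epas1, Egln3 and Egln1 passed with at least a 2-fold excess in heart, and so did 16.9% of all genes. Hif1a passed with at least a 2-fold deficit, and so did 19.5% of all genes. The log base is inferred, and if the values were natural logs Arnt would reach a 2-fold deficit too (-1.05). The remaining 4 called members belong to the 22.1% of genes that passed as lower by less than 2-fold. Ratios of this size cannot be told apart from dye bias in a design without a swap. Since RNA came from whole samples, the number of cells of a type and the RNA per cell cannot be told apart either.

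**Figure D1:**
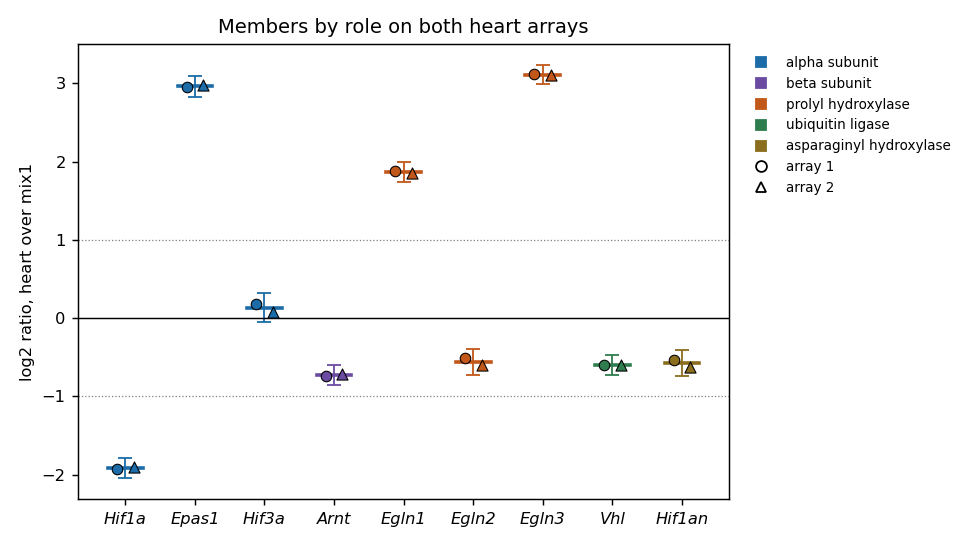
Log2 ratio of heart over mix1 (vertical axis) for the 9 members, coloured by role. Circles are heart array 1, triangles heart array 2, horizontal bars their mean and error bars the 95% interval of limma's moderated fit; dotted lines mark 2-fold. Epas1, Egln3 and Egln1 lie above the upper line on both arrays, Hif1a below the lower line, and Hif3a is the single member whose interval spans 0.

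Without centring, the arrays gave nearly the same value for each member. The difference between arrays ranged from 0.004 for Vhl to 0.11 for Hif3a in absolute size, against a median of 0.08 and an SD of 0.34 over all genes. With each array centred on its median, the SD rose to 0.13 for Epas1, 0.12 for Hif1a and Arnt and 0.10 for Vhl and Egln3. It also rose for Egln1 (0.09), and it fell for Hif3a (0.03), Egln2 (0.05) and Hif1an (0.04). The closeness of the arrays thus depends on the values being used without centring. All 9 members had the same sign on both arrays. From the highest ratio to the lowest, the order of the means was Egln3, Epas1, Egln1, Hif3a, Egln2, Hif1an, Vhl, Arnt and Hif1a. Egln2, Hif1an and Vhl lay within 0.04 of each other, less than the SD of 0.06 of Egln2 and of Hif1an, and their order was not the same on the arrays. These are ratios between the channels, and they do not rank the genes by abundance.

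**Figure D2:**
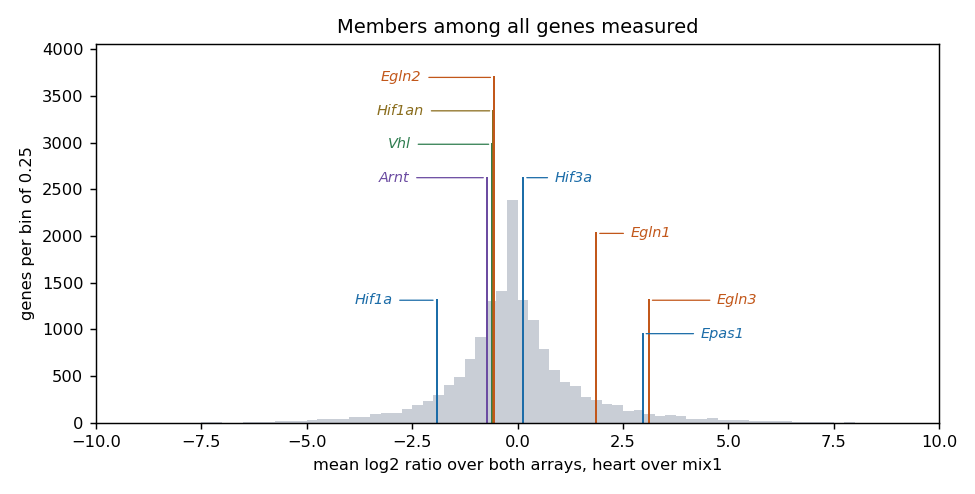
Number of genes (vertical axis) in bins of mean log2 ratio, heart over mix1 (horizontal axis, bins of 0.25), for all 15613 genes, with the mean of each member as a coloured line whose height has no meaning. Egln3 and Epas1 lie in the upper tail, with 4.08% and 4.49% of genes above them, and Hif1a has 8.45% of genes below it.

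The alpha subunits differed most among themselves. Epas1 encodes HIF-2 alpha, which is prominent in endothelial cells. It had log2 ratios of 2.95 on array 1 and 2.98 on array 2. The mean of 2.96 ± 0.02 (SD, n = 2) is a 7.80-fold higher signal in heart (limma adjusted p 0.0012), and 4.49% of all genes had a higher mean. Hif1a encodes HIF-1 alpha, the broadly expressed subunit that drives glycolytic genes. Its ratios were -1.93 and -1.91, a mean of -1.92 ± 0.02 (SD, n = 2) and a 3.78-fold lower signal in heart (limma adjusted p 0.00131). Both values of Epas1 were thus far above 0 and both of Hif1a far below it.

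The 2 probes of Hif1a pointed the same way. The probe A_43_P12423 gave -1.88 and -1.82, and the probe A_44_P397495 gave -1.98 and -1.997, so that their means were 0.14 apart. Of the 11 member probes, 3 passed limma's test as higher and 7 as lower when all probes were tested, against 31.5% and 33.7% of the 40012 probes. The probe of Hif3a was the one that did not pass (adjusted p 0.155). The ratio of Epas1 exceeded that of Hif1a by 4.88 on array 1 and by 4.89 on array 2, which is a 29.5-fold shift of the Epas1 to Hif1a signal balance between mix1 and heart. This is a within-array difference and gives no level of either transcript.

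Hif3a encodes an alpha subunit with many splice forms, some of which inhibit the other alpha subunits. Its ratios were 0.19 and 0.08, a mean of 0.13 ± 0.08 (SD, n = 2) that did not pass the test (limma adjusted p 0.12). The 95% interval ran from -0.05 to 0.32, so that these 2 arrays allow anything from near equal signal to a small excess in heart. A single probe cannot separate the splice forms. Between the other alpha subunits, Hif3a lay 2.83 below Epas1 and 2.05 above Hif1a on average.

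Arnt encodes HIF-1 beta, the partner of each alpha subunit and also of the aryl hydrocarbon receptor. Its ratios were -0.74 and -0.71, with a mean of -0.73 ± 0.02 (SD, n = 2), a 1.66-fold lower signal in heart (limma adjusted p 0.0035). It was therefore lower in heart together with Hif1a, but by 1.19 less on both arrays. Epas1 and Arnt, whose proteins form one dimer, went in opposite directions and were 3.69 apart on each array.

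Among the prolyl hydroxylases, Egln3 and Egln1 were higher in heart and Egln2 was lower. Egln3 encodes PHD3, which heart muscle expresses and which hypoxia induces strongly in many cells. Its ratios were 3.12 and 3.11, the largest of the members. The mean of 3.11 ± 0.01 (SD, n = 2) is an 8.65-fold higher signal in heart (limma adjusted p 0.0012), and 4.08% of all genes had a higher mean. Egln1 encodes PHD2, the main oxygen sensor of the group and itself a target of the factors it controls. It had ratios of 1.87 and 1.85, a mean of 1.86 ± 0.02 (SD, n = 2) and a 3.64-fold higher signal in heart (limma adjusted p 0.00133). The Egln1 probe was named from the array annotation alone, since its accession had no match in the current gene table. Egln2 encodes PHD1, the form that hypoxia is not known to induce. Its ratios were -0.52 and -0.60, a mean of -0.56 ± 0.06 (SD, n = 2) and a 1.47-fold lower signal in heart (limma adjusted p 0.00742). Egln3 exceeded Egln2 by 3.67 and Egln1 exceeded Egln2 by 2.42 on average, and no value of Egln2 came near those of the others. The call of Egln2 was lost without variance moderation (adjusted p 0.0872, with 0.00533 to 0.0872 over its alternatives).

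Vhl and Hif1an, which act after and beside the prolyl hydroxylases, had ratios close to that of Egln2. Vhl encodes the subunit that recognises hydroxylated alpha subunits. Its ratios averaged over 2 probes were -0.60 on both arrays, with a mean of -0.60 ± 0.003 (SD, n = 2) and a 1.52-fold lower signal in heart (limma adjusted p 0.00434). The probe A_44_P1017315 gave -0.52 and -0.48 and the probe A_44_P477135 gave -0.68 and -0.72. The probes of Vhl were thus 0.20 apart, far more than its arrays, so that the small SD understates the uncertainty of the gene. Hif1an encodes the asparaginyl hydroxylase FIH. Its ratios were -0.53 and -0.62, a mean of -0.58 ± 0.06 (SD, n = 2) and a 1.49-fold lower signal in heart (limma adjusted p 0.00737). That call was also lost without variance moderation (adjusted p 0.0888, with 0.00533 to 0.0888 over its alternatives).

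The factors act through the hypoxia response element, whose core is ACGTG or GCGTG, and Egln1 and Egln3 are among the known targets of the factors. The promoter windows of the 4 members that differed at least 2-fold are therefore shown, from RefSeq on the GRCr8 build, each from 250 bases before to 50 after the annotated start. They are written 5′ to 3′ on the strand of the gene, with every core in capitals on either strand (CACGT and CACGC on the strand shown). The windows are chr19:69804632-69804931 (minus strand) for Egln1, chr6:98359648-98359947 (plus strand) for Hif1a, chr6:13624680-13624979 (minus strand) for Epas1 and chr6:77410966-77411265 (minus strand) for Egln3.
Egln1: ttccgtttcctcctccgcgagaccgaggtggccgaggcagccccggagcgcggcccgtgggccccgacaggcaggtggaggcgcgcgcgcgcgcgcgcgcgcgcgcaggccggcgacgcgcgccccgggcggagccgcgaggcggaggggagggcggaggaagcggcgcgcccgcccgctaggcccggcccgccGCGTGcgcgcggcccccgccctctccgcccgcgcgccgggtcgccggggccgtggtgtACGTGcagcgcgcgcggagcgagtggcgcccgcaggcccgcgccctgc
Hif1a: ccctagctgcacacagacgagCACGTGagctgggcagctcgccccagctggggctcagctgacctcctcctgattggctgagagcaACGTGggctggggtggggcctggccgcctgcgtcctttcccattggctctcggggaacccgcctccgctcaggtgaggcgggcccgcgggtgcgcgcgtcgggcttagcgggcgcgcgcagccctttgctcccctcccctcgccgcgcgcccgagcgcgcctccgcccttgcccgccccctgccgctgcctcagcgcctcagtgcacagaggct
Epas1: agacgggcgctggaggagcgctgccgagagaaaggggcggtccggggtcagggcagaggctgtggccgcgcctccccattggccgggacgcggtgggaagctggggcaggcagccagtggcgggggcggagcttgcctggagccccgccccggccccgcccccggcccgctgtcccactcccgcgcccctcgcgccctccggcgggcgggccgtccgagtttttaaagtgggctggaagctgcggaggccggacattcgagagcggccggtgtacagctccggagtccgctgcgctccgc
Egln3: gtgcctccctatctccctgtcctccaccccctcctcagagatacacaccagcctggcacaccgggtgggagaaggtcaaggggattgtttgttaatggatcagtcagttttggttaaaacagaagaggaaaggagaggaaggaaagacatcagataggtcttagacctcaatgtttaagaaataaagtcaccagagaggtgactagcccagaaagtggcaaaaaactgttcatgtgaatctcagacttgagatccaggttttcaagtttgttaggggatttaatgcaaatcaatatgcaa

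All 9 members matched a window, and Hif3a had 2, which made 10 windows. The Egln1 window held 2 cores, with their middle base 54 bases before and 4 bases after the annotated start. The Hif1a window held 3 matches, of which 2 overlap on opposite strands in a single CACGTG, a palindrome that is also the E-box of other basic helix-loop-helix factors. Arnt held 1 core, and the second window of Hif3a held 2. The windows of Epas1, Egln3, Egln2, Vhl and Hif1an held 0, which says only that these letters are not in these 300 bases.

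**Figure D3:**
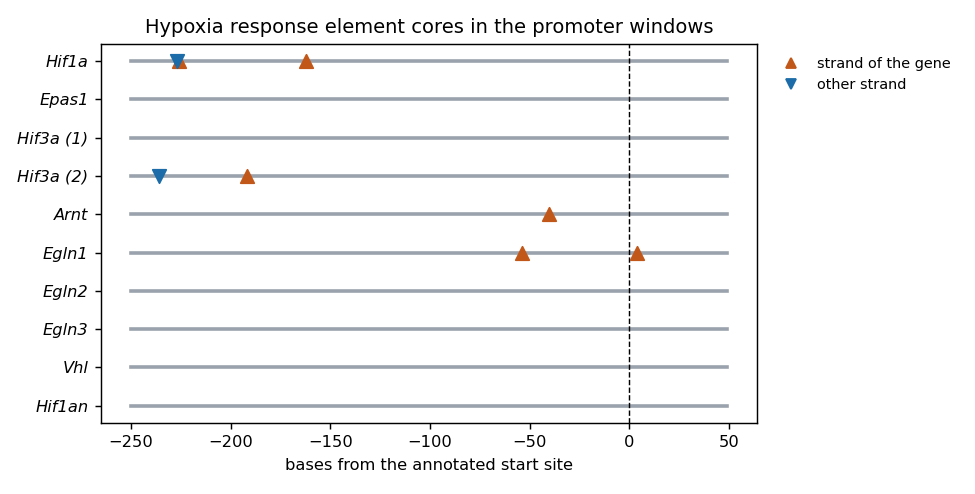
Positions of the hypoxia response element cores in the 10 promoter windows of the members (horizontal axis, bases from the annotated start site, dashed line). Upward triangles are cores on the strand of the gene and downward triangles those on the other strand, and the overlapping pair in Hif1a is one palindrome. Of the members at least 2-fold higher in heart, Egln1 has 2 cores and Epas1 and Egln3 have 0.

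The core is short and common, and 41.6% of all 33469 windows held at least 1, against 4 of the 10 member windows (40%). Of the 64 genes listed as known HIF targets and described further on, 49 had a window. Of their 56 windows, 40 (71.4%) held a core. The target windows had more CpG dinucleotides, which both cores contain (median 20, against 7 over all windows). The member windows also had more (median 16.5). The part of CpG content in either share was not tested. Presence of a core did not follow the direction among the members: Egln1, higher in heart, and Hif1a and Arnt, lower in heart, all held one.

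The remaining parts of the pathway are given by lists of genes, as counts past the gene test. These counts are to be read against all genes, of which 31.4% passed as higher and 41.5% as lower. Of 127 measured genes in 8 lists, 51 (40.2%) were higher and 58 (45.7%) lower in heart. Their median ratio was -0.12, against -0.09 over all genes. When each array was centred on its median, 19 small calls in these lists were lost (absolute log2 ratios from 0.15 to 0.45, among them Cul2, Uba1, Ube2d3, P3h2, Bnip3l and Ndrg1), and 0 called genes changed sign. Among lost calls, limma's adjusted p in the centred fit followed the size of the mean alone. Uba1 at -0.3816 and the endothelial marker Eng at 0.3814 both had 0.0633. A gene's own spread thus hardly counted in that fit, and the losses reflect this change of the test as well as the shift.

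**Figure D4:**
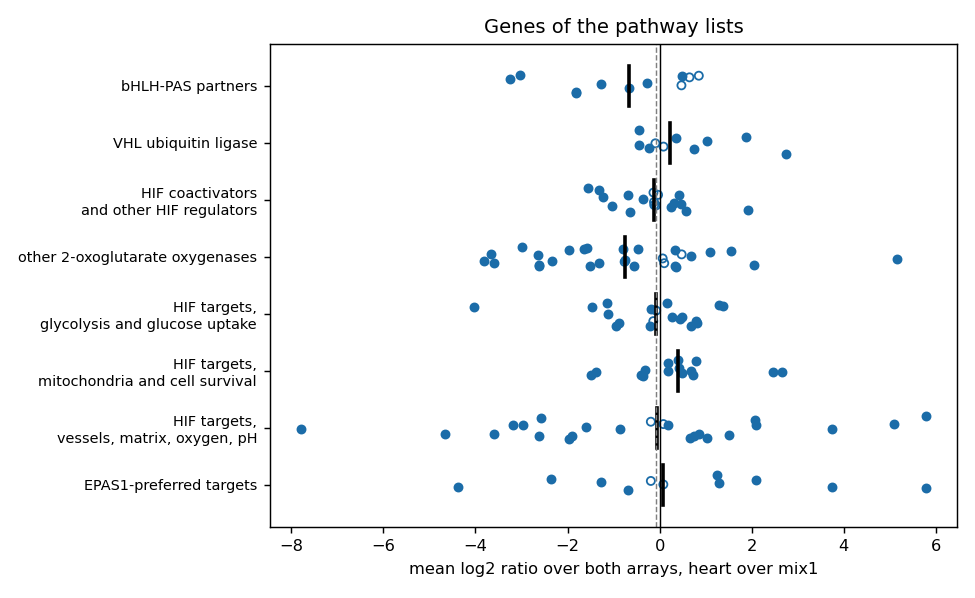
Mean log2 ratio of heart over mix1 (horizontal axis) for each measured gene of the 8 pathway lists (rows; vertical scatter within a row has no meaning). Filled points passed an adjusted p of 0.05, open points did not, black bars are list medians, and the dashed line is the median of all genes, -0.09. The medians lie between -0.76 for the other oxygenases and 0.39 for the mitochondrial and survival targets, and every list holds genes on both sides of 0.

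The relatives of ARNT that passed the test were lower in heart, apart from the coactivator gene Ncoa2. Of 11 measured partners and relatives with basic helix-loop-helix and PAS domains, including steroid receptor coactivators with those domains, 7 (63.6%) were lower and 1 (9.09%) higher (median -0.67), against 41.5% and 31.4% of all genes. After centring, 6 were lower and 4 higher. The added higher genes were Npas1, Npas4 and Sim1, which did not pass without centring and varied between the arrays (Npas4 at -0.32 and 1.27). The circadian factor gene Bmal1 was at -3.24 ± 0.09 (SD, n = 2), with -3.30 and -3.18 on the arrays. Arnt2, which encodes the close relative of ARNT, was at -3.02 ± 0.24 (SD, n = 2) and Sim2 at -1.82 ± 0.27 (SD, n = 2). Clock, the partner of BMAL1, was also lower at -0.67, a ratio near that of Arnt. The 1 gene higher without centring was the coactivator Ncoa2 at 0.48 ± 0.02 (SD, n = 2).

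The VHL ubiquitin ligase did not move as a unit. Of 10 measured genes, 5 passed as higher and 3 as lower (median 0.21), and the latter 3 calls were lost after centring. The RING proteins, which bring the ubiquitin-conjugating enzyme to a cullin, were higher. Rbx1, the RING protein of the VHL complex, was at 0.75 on both arrays, and its paralogue Rnf7, which works mainly with another cullin, was at 2.75 ± 0.002 (SD, n = 2). The adaptor Eloc was higher at 1.03 ± 0.11 (SD, n = 2), whereas its partner Elob was at -0.11 and -0.08 and did not pass (adjusted p 0.122). The scaffold Cul2 was lower at -0.45 ± 0.03 (SD, n = 2), close to Vhl itself. Of the conjugating enzymes, Ube2d1 was higher at 1.88 ± 0.04 (SD, n = 2) and Ube2d3 lower at -0.23 ± 0.02 (SD, n = 2). Uba1, the ubiquitin-activating enzyme gene, was lower at -0.44 ± 0.004 (SD, n = 2).

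Among coactivators and other regulators of the factors, 6 of 18 measured genes were higher and 7 lower (median -0.12). Cited4, an inhibitor of the binding of CBP and p300, was the highest at 1.91 ± 0.12 (SD, n = 2), while its relative Cited2 was lower at -0.70 on both arrays. Crebbp, which encodes CBP, was lower at -0.64, and Ep300 gave 0.07 and -0.14 and did not pass (adjusted p 0.718). The lowest ratios were those of Os9 (-1.56 ± 0.03), the chaperone gene Hsp90aa1 (-1.32 ± 0.03) and Rack1 (-1.23 ± 0.003), each as SD with n = 2. Hsp90 stabilises HIF-1 alpha, and RACK1 competes with Hsp90 for binding to it. The other cytosolic form, Hsp90ab1, was higher at 0.47 ± 0.01 (SD, n = 2), as was Sart1 at 0.57 ± 0.01 (SD, n = 2).

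The EGLN enzymes and FIH belong to the 2-oxoglutarate oxygenases, and others of this family were found on both sides. Of 29 measured genes, 17 (58.6%) were lower and 8 (27.6%) higher (median -0.76), against 41.5% and 31.4% of all genes. The list includes P4hb, the disulfide isomerase subunit of collagen prolyl hydroxylase, which is not an oxygenase itself (-2.33). The lowest were genes of collagen hydroxylation: P4ha3 at -3.81 ± 0.09, P3h3 at -3.65 ± 0.05 and Plod2 at -3.60 ± 0.02, each as SD with n = 2. Of the 9 collagen prolyl and lysyl hydroxylase genes, grouped after their values were seen, 8 were lower and P3h2 was higher (0.32). All 11 fibroblast markers were lower as well, from -8.36 for Fn1 to -1.57 for Pdgfra, and their part in this result was not tested. The highest was Phyh, of peroxisomal fatty acid oxidation, at 5.15 ± 0.01 (SD, n = 2). P4htm, a membrane-bound prolyl hydroxylase that can also act on HIF alpha, was at 2.02 and 2.06, a mean of 2.04 ± 0.03 (SD, n = 2), and so was higher like Egln1. The histone demethylase gene Kdm6a was higher at 1.56 ± 0.01 (SD, n = 2).

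Genes that the factors are known to activate were found on both sides. Of 58 measured genes in 3 target lists, 30 (51.7%) passed as higher and 24 (41.4%) as lower (median 0.16), against 31.4% and 41.5% of all genes. At least 2-fold and past the test were 11 in the higher (19%) and 16 in the lower direction (27.6%), against 16.9% and 19.5% of all genes. Egln1 and Egln3 are themselves such targets and were not counted here.

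Of 19 measured targets in glycolysis and glucose uptake, 9 were higher and 8 lower (median -0.08). Aldoa (1.38 ± 0.03), Gapdh (1.30 ± 0.002) and Tpi1 (0.81 ± 0.0002), successive enzymes of the pathway, were the highest, each as SD with n = 2. The lactate exporter gene Slc16a3 was the lowest at -4.03 ± 0.05 (SD, n = 2), followed by Aldoc at -1.48 ± 0.04 (SD, n = 2) and Pfkfb4 at -1.14 ± 0.42 (SD, n = 2). The glucose transporter gene Slc2a1, a standard target of HIF-1, was lower at -0.95, and Ldha, the lactate dehydrogenase gene, was higher at 0.45. Several of these genes have near-identical pseudogenes in the rat genome, and a probe may detect those too.

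Of 15 measured targets in mitochondria and cell survival, 10 were higher and 5 lower (median 0.39), or 8 and 2 after centring. Fam162a and Bnip3, both mitochondrial and linked to cell death or mitophagy, were at 2.66 ± 0.08 and 2.45 ± 0.01, each as SD with n = 2. Bnip3l, the paralogue of Bnip3, was lower at -0.36. Insig2, a brake on sterol synthesis, was higher at 0.79 ± 0.02 (SD, n = 2), and the histone demethylase gene Kdm3a at 0.69. Ddit4, an inhibitor of mTOR signalling, was lower at -1.50 ± 0.04 (SD, n = 2), the repressor gene Bhlhe40 at -1.38 ± 0.04 (SD, n = 2) and Ndrg1 at -0.40 ± 0.06 (SD, n = 2).

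Of 24 measured targets in vessels, matrix, oxygen transport and pH, 11 were higher and 11 lower (median -0.06), and the spread was the widest of the 3 target lists, from -7.79 to 5.79. The higher end held genes of vessels: the growth factor receptor gene Kdr at 5.79 ± 0.02, the endothelial nitric oxide synthase gene Nos3 at 5.09 ± 0.08 and the angiopoietin receptor gene Tek at 3.75 ± 0.16, each as SD with n = 2. Vegfa, the best known target, was at 1.49 and 1.51. The lower end held enzymes that cross-link or modify collagen: Lox at -7.79 ± 0.04, Loxl2 at -4.66 ± 0.04 and Plod2, each as SD with n = 2. Edn1 (-3.18), Adm (-2.97) and Hmox1 (-2.58), which encode endothelin, adrenomedullin and heme oxygenase, were also lower. Epo, the erythropoietin gene, was at 0.01 and 0.15 and did not pass (adjusted p 0.327).

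Genes for which HIF-2 is thought to be the preferred activator were found on both sides. Of 11 measured, 5 (45.5%) passed as higher, all of them at least 2-fold, and 4 (36.4%) as lower, 3 of them (27.3%) at least 2-fold (median 0.08). Over all genes, 31.4% passed as higher, 16.9% at least 2-fold, and 41.5% as lower, 19.5% at least 2-fold. Kdr, Tek and Flt1 (2.10 ± 0.08) were the highest, while Tgfa was at -4.38 ± 0.003, the cyclin gene Ccnd1 at -2.37 ± 0.01 and the iron transporter gene Slc11a2 at -1.27 ± 0.02, each as SD with n = 2. Of the 12 genes listed, 5 also stand in the other target lists, and Kdr, Tek and Cdh5 are endothelial markers.

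Markers of cell types also differed between the channels. All 11 measured endothelial markers were higher in heart, from Eng at 0.32, a call lost after centring, to Kdr at 5.79 (median 3.75). Epas1, Egln3 and Egln1 lay within that range on both arrays, but the range is wide and holds many other genes. These members lay below all 10 cardiac muscle markers, whose means ran from 3.85 to 7.23. The part of endothelial or muscle content in the ratios of Epas1, Egln1 and Egln3 was not tested. All 7 markers of proliferating cells were lower in heart (median -3.95). Of 7 macrophage markers, 3 were higher and 2 lower, and of 6 smooth muscle and pericyte markers, 3 were higher and 2 lower. Markers are given as ratios, and no level of any marker was used here.

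Heart array 2 stood apart in lung and airway epithelial markers, of which 8 of 11 were at least 2-fold higher on it than on array 1. Sftpc, a surfactant gene, was at 0.84 and 6.68, and Epcam, an epithelial gene, at -1.02 and 2.69. On array 1 alone the list ranged from -1.21 to 3.22 and on array 2 from 0.38 to 6.68. No member differed between the arrays by as much as these markers. Without centring, Epas1 differed by 0.03 and Hif3a by -0.11 (array 2 minus array 1), and with centring the SD of Epas1 was 0.13. Lung also expresses Epas1 strongly, and the part of lung signal in its ratio was not tested. With either array alone, Epas1, Egln3 and Egln1 still exceeded 2-fold toward heart and Hif1a toward mix1, and no other member did.

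**Figure D5:**
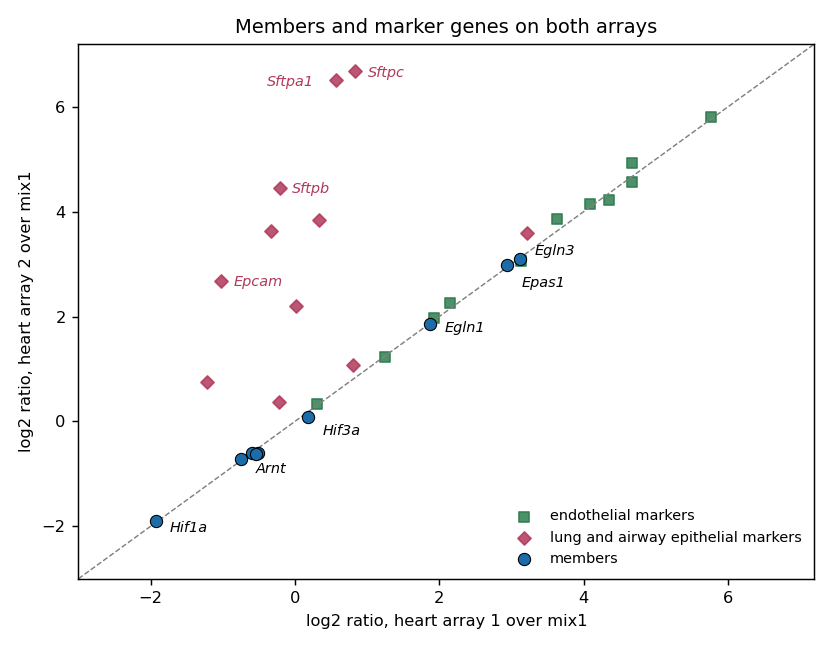
Log2 ratio over mix1 on heart array 1 (horizontal axis) and heart array 2 (vertical axis) for the 9 members (circles), 11 endothelial markers (squares) and 11 lung and airway epithelial markers (diamonds); the dashed line marks equal values. Members and endothelial markers lie on or near the line, whereas Sftpc, Sftpa1, Sftpb and Epcam lie far above it.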

How the data were processed

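The authors deposited 1 value per probe and array, read here as log2 ratios of the 2 channels. The signals came from Agilent Feature Extraction, per the submitters' processing notes. Not given in the sources used here are its version, how background was corrected and how the dyes were normalized. The log base was inferred from the range of the values, and a reading as natural logs was also run. The array medians were 0.01 and -0.14, and the values were used without centring. No spot intensities were used, so it is unknown how far each channel lay above background. The precision is limited by having 2 arrays.

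The platform annotation named 1 gene for 20417 probes and several for 0, and the other 19595 probes are unnamed here. Through their accessions, 16978 probes matched the GRCr8 gene table of RefSeq and 2251 symbols were updated. Probes of a gene were averaged, which gave 15613 genes.

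All genes, and separately all probes, were fitted in R 4.3.3 with limma 3.58.1 (intercept, lmFit and eBayes, 1 residual degree of freedom, prior degrees of freedom 1.24 for genes and 1.28 for probes). Tests were two-sided, with Benjamini-Hochberg adjustment at 0.05. The code was tested on simulated data. An exact sign-flip test over 2 arrays cannot go below p = 0.5 and was not used. Promoter windows were searched in Python 3.11.15. The members and lists were chosen with earlier results of these data known, and lists carry no test of their own. The members were all named, and of each pathway list the 3 highest and 3 lowest genes past the test; other genes named were chosen after their values were seen. No gene was sought for a pattern like that of a member, since 2 arrays of 1 group hold none over conditions.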

Additional observations from a re-analysis of the deposited data

How the results depend on the processing

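In each of 8 alternative fits, all 9 members kept their sign. The alternatives were centred arrays, natural logs, the probe with the smallest difference between arrays, the median of probes, annotation symbols as given, genes of opposite sign left out, robust moderation and no moderation. The first 7 also kept 3 members as higher and 5 as lower, but for most of them this says little. Natural logs and annotation symbols left each member's adjusted p as it was, and the median of at most 2 probes is their mean. Leaving out genes of opposite sign lowered limma's adjusted p of all 9 members. In the centred fit a gene's own spread hardly counted (limma adjusted p 1.06e-56 for Epas1). The kept signs say nothing in any of the 8 fits. Centring moved the means only slightly upward, with Hif3a from 0.13 to 0.20 and Egln2 from -0.56 to -0.49. The choice of probe touched Hif1a and Vhl, and both probes of each were negative. The other alternatives left the members' means as they were or only rescaled them. Without moderation 3 members remained higher, but 3 rather than 5 were lower, since Egln2 (-0.56) and Hif1an (-0.58) no longer passed. That fit called 2314 genes as higher and 2626 as lower, against 4905 and 6480, and 28 rather than 51 pathway genes as higher and 39 rather than 58 as lower. It estimates each spread from 1 degree of freedom. Read as natural logs, the members' ratios were larger, with Egln3 at 4.49, Epas1 at 4.28 and Hif1a at -2.77, and Arnt moved past a 2-fold deficit, from -0.73 to -1.05. With a single array no test can be made, and the members' values are those given per array. No paired analysis was possible because the series has a single group. No filter on dim probes could be run without intensities, and how close either channel lay to background for any member is unknown.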
